A study of Mus musculus with 36 samples.

Results

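The comparison described here is that of excess against depleted folic acid (FA) in the brains of Tet1 knockout (KO) mouse embryos, 5 embryos of dams fed 30 ppm FA against 5 of dams fed 0.1 ppm. It takes 10 of the 36 oxidative bisulfite reduced representation (oxBS-RRBS) libraries of the series. Members were chosen by the KO and diet given in the sample titles. 1 further library with the same labels, replicate 1 of the 30 ppm group, was left out because its genotype is disputed (the study's own sample list calls it HET, heterozygous), and enters only as an alternative. All 10 embryos were homozygous for Tet1tm1Koh on the inbred 129S6.Cg background, came from crosses of heterozygous parents and were collected at E11.5. Both diets, like the control diet of 3 ppm, also held 1% succinylsulfathiazole, an antibiotic against gut bacteria that make folate. Dams ate the diet for weeks before mating, so that the exposure was given per litter: the 5 embryos of each diet came from 4 litters, 1 of which gave 2 embryos. The allele carries a cassette at the first coding ATG, which abolishes the full-length protein, while a short isoform may remain. Each library is 1 brain, from forebrain to hindbrain. By label, each diet had 2 embryos with a neural tube defect (NTD), 1 labelled inHB and 2 of normal phenotype; 2 of the 30 ppm and 3 of the 0.1 ppm embryos were female.

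TET1 oxidises 5-methylcytosine (5mC), the first step in the removal of this mark from DNA, and in its absence regions that it keeps lowly methylated gain 5mC. Folate carries the 1-carbon units from which cells make methionine and S-adenosylmethionine, the methyl donor of the DNA methyltransferases. In the developing brain 5mC is low at CpG-rich promoters and high elsewhere. Oxidative bisulfite treatment reads 5mC alone, apart from its oxidised forms. In a whole brain, a change of the methylation within cells and a change in the share of cell types cannot be told apart.

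The 10 libraries held 25648249 to 47686513 CpG calls (reads summed over CpGs), with a mean coverage of 12.6 to 22.1 reads per listed CpG. Coverage was 12.95 to 19.3 reads at 30 ppm and 12.6 to 22.1 reads at 0.1 ppm. As a check of the labels, the CpG inside Tet1 that best separated KO from wild-type (WT) embryos of the 3 ppm diet (mm10, chromosome 10, position 62884019) was methylated at 69.6 to 100% in the 10 embryos, against 0 to 7.32% in the 4 WT embryos of 3 ppm and in 9 of 20 reads of the library left out. Heterozygous (HET) embryos of these diets are used for context: 7 are used here, and 1 more, replicate 2 of 0.1 ppm, which the study excluded and which had the fewest CpG calls of the 3 HET libraries of that diet (23190717), is given apart. The 7 spanned 8.33 to 69.2%, so that this CpG does not tell every HET from a KO embryo. Labelled sex matched the chromosome Y reads and the mean methylation of chromosome X in all 10.

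With each CpG weighted equally, methylation was slightly lower in KO embryos of the excess diet. Over the 1118696 CpGs on autosomes that reached a coverage of 5 in each of the 10 libraries, the embryos of 30 ppm had mean levels of 37.35, 37.52, 37.68, 37.69 and 37.50%, and those of 0.1 ppm 37.99, 37.99, 37.73, 37.61 and 38.11%. The groups overlapped: 3 of the 30 ppm embryos lay below every embryo of 0.1 ppm. The means were 37.5% ± 0.140 (SD, n = 5) and 37.9% ± 0.206 (SD, n = 5), a difference of -0.339 percentage points (95% interval -0.616 to -0.0665; two-sided exact permutation test, p = 0.0317). Without replicate 2, 3 or 6 of 30 ppm, or replicate 5 of 0.1 ppm, p rose to 0.0556 to 0.0635 in the exact permutation test. The sign depended on the weighting. With each read rather than each CpG weighted equally, the difference was 0.424 points (exact permutation p = 0.413), and over each embryo's own CpGs it was 0.273 points (exact permutation p = 0.802).

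**Figure D1:**
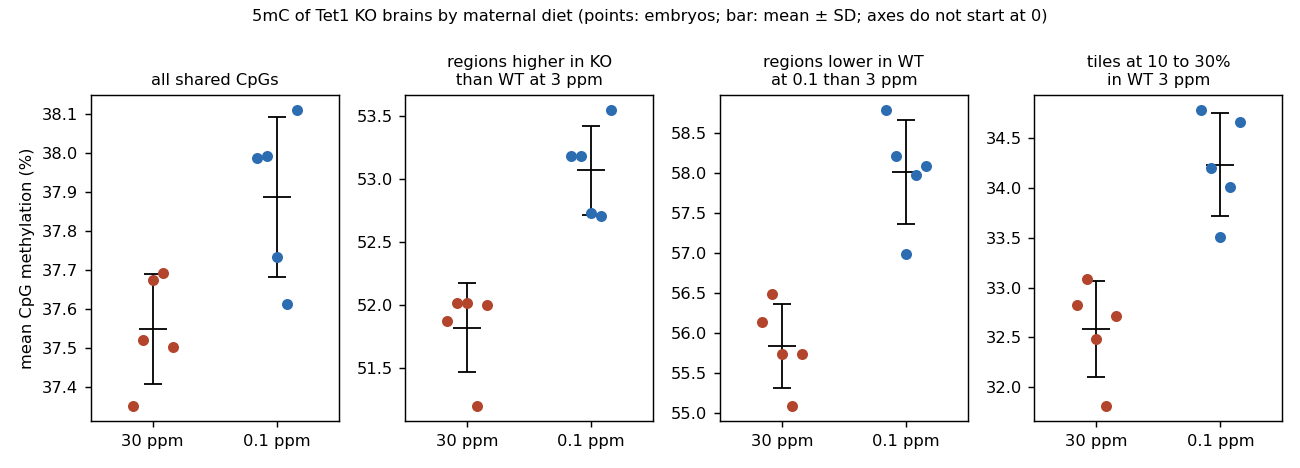
Mean CpG methylation in percent of each KO embryo by maternal diet, over all shared CpGs and over 3 subsets of them; points are embryos, bars the mean ± SD of 5, and the axes do not start at 0. The diets overlap over all shared CpGs and do not overlap in the other 3 panels.

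Among region classes, the difference was largest where WT brains are partly methylated (differences between classes were not tested). Classes were set on the reference genome and on the WT embryos of 3 ppm, not on the 10 KO libraries. In 1 kb tiles at 10 to 30% in WT, the embryos of 30 ppm had 32.8, 33.1, 32.5, 31.8 and 32.7% and those of 0.1 ppm 34.8, 34.2, 33.5, 34.01 and 34.7%. Every embryo of 30 ppm lay below every embryo of 0.1 ppm, and the difference was -1.65 points (interval -2.39 to -0.901; exact permutation test adjusted over 11 classes, p = 0.0291). In tiles at 30 to 70% in WT the groups did not overlap either, with 65.2% ± 0.311 against 66.4% ± 0.408 and a difference of -1.15 points (interval -1.66 to -0.661; exact permutation, adjusted p = 0.0291). Tiles above 70% in WT differed by -0.396 points (interval -0.913 to 0.155; exact permutation, adjusted p = 0.151), and by -0.260 points without replicate 2 of 30 ppm. HET embryos also had the lower mean at 30 ppm, over the CpGs covered in them too. In tiles at 10 to 30% in WT they had 21.1% ± 0.606 at 30 ppm (n = 5) and 22.5% ± 0.124 at 0.1 ppm (n = 2). In tiles at 30 to 70% they had 56.4% ± 1.27 and 58.5% ± 0.761, and over all these CpGs 33.3% ± 0.297 and 33.8% ± 0.183. The HET embryo left out had 22.7, 58.6 and 33.7%.

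At the lowly methylated end the values were small. Tiles under 10% in WT had 2.09% ± 0.0355 at 30 ppm and 2.22% ± 0.101 at 0.1 ppm, a difference of -0.129 points (exact permutation, adjusted p = 0.0499). Promoters, taken as 1 kb to either side of a start site of a protein-coding gene, had 4.18% ± 0.0345 and 4.29% ± 0.0987 (exact permutation, adjusted p = 0.0611). Such CpGs also read any incomplete conversion of cytosine, whose part in the differences was not tested. The part of incomplete oxidation was not tested either, at any level of methylation.

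Exons differed by -0.475 points (exact permutation, adjusted p = 0.0437), introns by -0.542 and intergenic CpGs by -0.574 points (both at an adjusted p of 0.0499 in the exact permutation test). By CpG density, tiles of 20 to 50 CpGs per kb were the class without overlap, with 45.56% ± 0.121 against 46.0% ± 0.231 (exact permutation, adjusted p = 0.0291), while tiles under 20 and over 50 CpGs per kb differed by -0.588 and -0.104 points (exact permutation, adjusted p = 0.0546 and 0.0611). All 11 classes had the lower mean at 30 ppm. With the library of disputed genotype every class that passed lost its call (exact permutation, adjusted p = 0.0608), and the classes at 10 to 30% and 30 to 70% in WT differed by -3.56 and -2.83 points. When 1 embryo was left out in turn, the class at 10 to 30% in WT passed each time and that at 30 to 70% failed without replicate 5 of 0.1 ppm (-1.004 points; exact permutation, adjusted p = 0.0582). Exons failed 5 times of 10, introns 8, intergenic CpGs 8, tiles under 10% in WT 9 and tiles of 20 to 50 CpGs per kb 3 times. With the littermates of each diet merged, 4 litters against 4, all 11 differences stayed below 0, and that of the class at 10 to 30% in WT was -1.68 points. None passed, where the size of the design limits p: the smallest it allows is 0.0286, and with the 5 classes at that limit the smallest adjusted p was 0.0629 (exact permutation).

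With reads weighted equally, the classes at 10 to 30% and at 30 to 70% in WT differed by -1.58 and -1.19 points (exact permutation, adjusted p = 0.0437 for both). In that weighting promoters, introns and tiles of 20 to 50 CpGs per kb turned to 0.0119, 0.0691 and 0.0443 points, and none of the other classes passed.

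**Figure D2:**
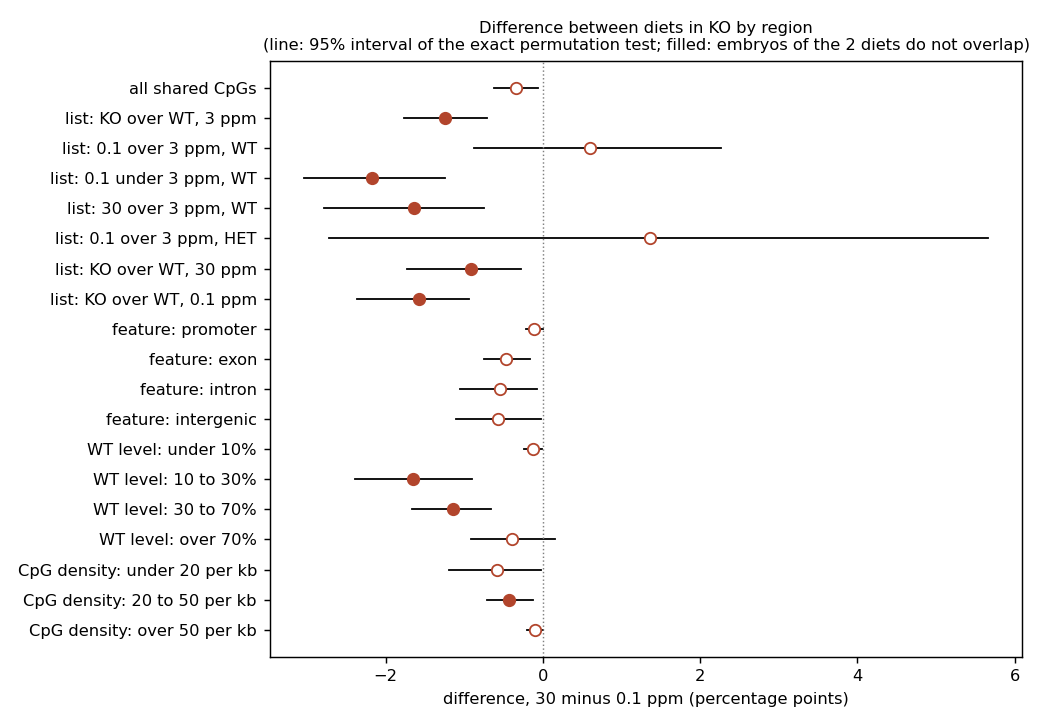
Difference in mean CpG methylation between KO embryos of 30 and of 0.1 ppm, in percentage points, over all shared CpGs, 7 region lists and 11 region classes; lines are 95% intervals of the exact permutation test and filled points mark regions where the embryos of the diets do not overlap. The KO over WT lists of 30 and 0.1 ppm were chosen on these same embryos. Tiles at 10 to 30% in WT lie at -1.65 points, and the interval of tiles above 70% in WT spans 0.

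The study's lists of differentially methylated regions (DMRs) were then read in the same embryos. 5 of the 7 lists used were chosen on embryos other than these 10. The KO over WT list of the control diet came from other litters, and the lists of modified diets in WT and HET embryos partly from littermates. At the 18109 autosomal regions hypermethylated in KO over WT on the control diet, which held 104358 shared CpGs, the embryos of 30 ppm had 51.88, 52.01, 52.02, 51.20 and 52.00%. Those of 0.1 ppm had 53.18, 53.18, 52.73, 52.71 and 53.55%. The groups did not overlap, and the difference was -1.25 points (interval -1.77 to -0.713; exact permutation test adjusted over 7 lists, p = 0.0111). It was below 0 within each label: females had means of 51.5% (n = 2) and 52.9% (n = 3), males 52.0% (n = 3) and 53.4% (n = 2), embryos with NTD 51.9% and 52.7% and normal embryos 51.6% and 53.4% (n = 2 each) at 30 and 0.1 ppm.

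Other genotypes set the scale of this difference. Over the 91826 CpGs of the list that were also covered in the KO, HET and WT embryos named next and in the disputed library, KO embryos had 51.8% ± 0.349 at 30 ppm, 53.1% ± 0.360 at 0.1 ppm and 53.4% ± 0.850 at 3 ppm (n = 5 each). HET embryos had 41.1% ± 0.808 at 30 ppm (n = 5) and 42.5% ± 0.396 at 0.1 ppm (n = 2; 42.6% in the embryo left out), and WT embryos of 3 ppm 37.8% ± 0.543 (n = 4). The KO and WT embryos of 3 ppm were those on which the list was chosen. KO embryos of all 3 diets lay above HET and WT embryos.

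Inside the list the diets differed by -1.25 points and over all other shared CpGs by -0.245 points. The difference of these differences, a test chosen after seeing the data, was -1.004 points (interval -1.54 to -0.609; exact permutation, p = 0.0238 adjusted over 3 such tests). Within tiles of like WT level the same contrast did not pass, at -0.465 points (interval -1.25 to 0.253) for 10 to 30% and -0.440 points (interval -1.15 to 0.0900) for 30 to 70% (exact permutation, adjusted p = 0.206 for both). Outside the list, tiles of both classes still differed between diets by -1.37 and -0.918 points.

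Of the 3 lists made from diets in WT embryos, each against the control diet, 2 differed between the modified diets in KO. Both had the sign opposite to their name. The names compare 0.1 or 30 ppm with 3 ppm, while KO embryos are compared here at 30 and 0.1 ppm. These lists rest on 2 WT embryos of 0.1 ppm and 3 of 30 ppm. The titles and the study's sample list call all of them WT. The genotype of 2 of them was still taken as doubtful in planning the comparison, on grounds other than these labels. At the 2850 regions hypomethylated in WT on 0.1 against 3 ppm, KO embryos of 0.1 ppm were higher: 58.8, 58.2, 56.99, 58.0 and 58.1%, against 56.1, 56.5, 55.7, 55.1 and 55.7% at 30 ppm. The groups did not overlap (difference -2.17 points, interval -3.04 to -1.25; exact permutation, adjusted p = 0.0111). Over the 14893 CpGs of these regions also covered in the other embryos, KO embryos had 55.59% ± 0.543 at 30 and 57.79% ± 0.653 at 0.1 ppm. KO embryos of 3 ppm had 57.03% ± 1.204 there. Their range (55.53 to 58.73%) held that of 0.1 ppm (56.79 to 58.60%), so a reversal in KO of the WT change on 0.1 ppm was not shown. At the 590 regions hypermethylated in WT on 30 against 3 ppm, KO embryos of 30 ppm were lower by 1.64 points, again without overlap (interval -2.78 to -0.745; exact permutation, adjusted p = 0.0111). This call was lost with the library of disputed genotype (-4.19 points; exact permutation, adjusted p = 0.0644), and outside the KO over WT regions the difference was -0.771 points. Over the CpGs of this list also covered in the other embryos, KO embryos had 54.3% ± 0.965 at 30, 55.9% ± 0.334 at 0.1 and 56.1% ± 0.820 at 3 ppm. The 2616 regions hypermethylated in WT on 0.1 ppm had 77.8% ± 0.808 and 77.1% ± 1.19, a difference of 0.601 points (interval -0.882 to 2.26; exact permutation, adjusted p = 0.444). The 4 autosomal regions hypermethylated in HET on 0.1 ppm had 67.2% ± 2.53 and 65.9% ± 3.06 over 31 CpGs (exact permutation, adjusted p = 0.444).

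The 2 lists chosen on these same KO embryos are a description. Regions hypermethylated in KO over WT had 49.0% ± 0.628 and 49.9% ± 0.394 where the list came from 30 ppm, and 46.6% ± 0.616 and 48.2% ± 0.379 where it came from 0.1 ppm.

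At single regions the diets hardly separated. Of 65991 tiles of 1 kb that could be tested, with at least 3 shared CpGs and an SD of at least 2 points, 2 were called, meaning a difference of 10 points or more with an adjusted p below 0.05, 1 higher and 1 lower at 30 ppm. This is 0.00303% of the tiles tested, by the quasi-binomial test, in which the dispersion is moderated across tiles with limma. Limma on logit levels called 0, with 156 higher and 454 lower tiles of 10 points at an unadjusted p under 0.05. The count moved with single embryos: it was 3 to 20 when 1 embryo was left out, with 20 (3 higher and 17 lower) without replicate 3 of 0.1 ppm, and 19 (3 higher and 16 lower) with littermates merged.

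The tile that was higher lies in an intron of Rasa3, a GTPase-activating protein for Ras and Rap (mm10, chromosome 8, 13668001 to 13669000), 8603 bp from the nearest start site. Embryos of 30 ppm had 90.1, 81.7, 95.6, 78.0 and 86.4% and those of 0.1 ppm 55.6, 66.7, 70.7, 57.4 and 55.1%. Every embryo of the excess diet was above every embryo of the depleted diet. The difference was 25.3 ± 4.44 points (SE; adjusted p = 0.0256, quasi-binomial test), over 6 CpGs and 36 to 150 reads per embryo. All 6 CpGs were higher at 30 ppm. The tile varied in embryos outside the comparison too: KO embryos of 3 ppm had 77.4% ± 9.97 (n = 5), HET embryos 67.4% ± 10.2 at 30 ppm (n = 5) and 54.6 and 83.3% at 0.1 ppm, with 80.0% in the HET embryo left out. The call was lost without replicate 4 of 30 ppm (adjusted p = 0.0650) or replicate 4 of 0.1 ppm (adjusted p = 0.0834), without the SD filter (adjusted p = 0.119) and with the library of disputed genotype (adjusted p = 0.400; quasi-binomial test for all). It was also lost by limma on logit levels, and at a coverage of 10 the tile was not tested.

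The tile that was lower lies in an exon of Dact1, which codes for an inhibitor of WNT signalling that binds Dishevelled (mm10, chromosome 12, 71318001 to 71319000). It also overlaps the non-coding 4930474H06Rik, whose start site is nearest. Embryos of 30 ppm had 77.4, 72.0, 66.4, 72.1 and 64.9%, and those of 0.1 ppm 75.4, 82.8, 82.2, 82.5 and 83.5%. Replicate 2 of 30 ppm lay above replicate 1 of 0.1 ppm, and the groups were otherwise apart. The difference was -10.7 ± 2.68 points (SE; adjusted p = 0.0224, quasi-binomial test) over 38 CpGs and 498 to 1130 reads per embryo, of which 36 CpGs were lower at 30 ppm. At the same CpGs WT embryos of 3 ppm had 54.9% ± 5.05 (n = 4), HET embryos of 30 ppm 59.8% ± 4.46 (n = 5) and KO embryos of 3 ppm 76.2% ± 6.56 (n = 5). HET embryos of 0.1 ppm had 60.4 and 68.3%, with 76.0% in the HET embryo left out. The difference fell under 10 points, and the call was lost, without replicate 4 or 6 of 30 ppm (-9.70 and -9.31 points), with littermates merged (-9.96 points) or at a coverage of 10 (-9.01 points). Without the SD filter the adjusted p was 0.122 and with the disputed library 0.258 (quasi-binomial test), and limma on logit levels did not call the tile either.

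The sequences of the windows that carry most of the measured CpGs of both called tiles, and of a promoter tile of Sycp3 described below, are given from GRCm38.p6 on the plus strand, with measured CpGs in capitals. They show the different make-up of the regions: 6 CpGs over 132 bases in Rasa3 (chr8:13668546-13668677), 25 over 236 bases of coding sequence in Dact1 (chr12:71318258-71318493) and 6 over 106 bases just downstream of the start of Sycp3 (chr10:88460029-88460134). Mean levels over these CpGs at 30 and 0.1 ppm were 86.3 and 61.1%, 73.5 and 82.8%, and 80.6 and 61.7%.
Rasa3: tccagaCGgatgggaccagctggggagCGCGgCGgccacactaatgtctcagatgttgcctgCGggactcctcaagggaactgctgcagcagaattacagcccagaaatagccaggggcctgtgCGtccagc
Dact1: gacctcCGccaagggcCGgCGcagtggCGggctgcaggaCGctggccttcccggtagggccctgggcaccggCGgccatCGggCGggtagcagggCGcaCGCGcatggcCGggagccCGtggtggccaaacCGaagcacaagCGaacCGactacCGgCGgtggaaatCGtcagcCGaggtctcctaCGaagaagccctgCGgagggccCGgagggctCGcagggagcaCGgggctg
Sycp3: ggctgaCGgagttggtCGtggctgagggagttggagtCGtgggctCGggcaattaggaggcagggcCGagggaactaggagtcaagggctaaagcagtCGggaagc

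5 further tiles had an adjusted p under 0.05 but differed by under 10 points, all lower at 30 ppm and all without overlap (they were picked out after their values were seen). In 3 alternatives no tile had an adjusted p under 0.05. The smallest was 0.0507 without the SD filter and 0.180 with the library of disputed genotype (quasi-binomial test), and 0.736 by limma on logit levels. An exonic tile of Jph4, a junctophilin of neurons, had 74.5% ± 4.11 and 82.5% ± 1.37 (adjusted p = 0.00807, quasi-binomial test). An exonic tile of the zinc finger gene Zfp467 had 77.9% ± 4.94 and 87.3% ± 2.47, against 21.7% ± 1.92 in WT embryos of 3 ppm. An exonic tile of Nfic, a nuclear factor I family member, had 81.5% ± 2.64 and 91.4% ± 2.38. An intergenic tile 54307 bp from the start of Gm5118 had 5.03% ± 1.38 and 12.1% ± 1.35, and KO embryos of 3 ppm 11.1% ± 6.39. The last, 377510 bp from the start of 5730507C01Rik, had 21.1% ± 1.03 and 28.4% ± 3.29.

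**Figure D3:**
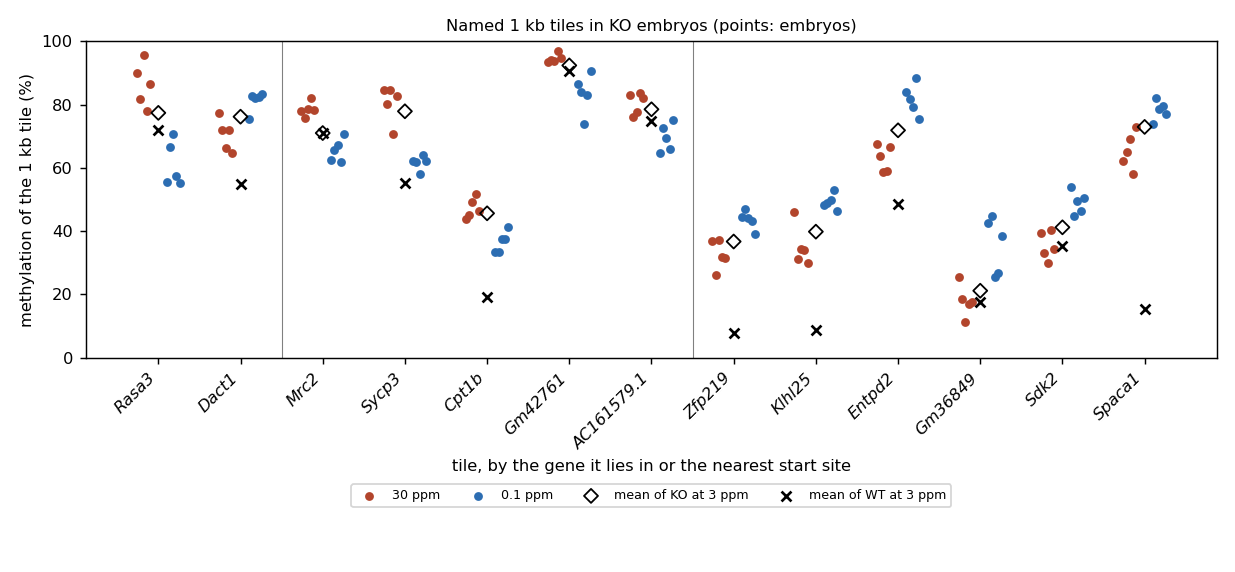
Methylation in percent of 13 named tiles of 1 kb in the 10 KO embryos, with the mean of KO and of WT embryos of 3 ppm; the vertical lines separate the 2 called tiles, 5 uncalled tiles that were higher and 6 that were lower at 30 ppm. In Rasa3 every embryo of 30 ppm lies above those of 0.1 ppm, and in Zfp219 and Spaca1 all KO embryos lie above the WT mean.

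Among uncalled tiles, those of at least 10 points without overlap and with the smallest p were described by rule, 5 higher and 6 lower. An intronic tile of Mrc2, an endocytic collagen receptor, had 77.9, 75.7, 78.8, 82.1 and 78.3% at 30 ppm and 62.6, 65.6, 67.4, 61.9 and 70.7% at 0.1 ppm (difference 12.9 ± 1.91 points, SE; adjusted p = 0.0562, quasi-binomial test). A promoter tile of Sycp3, a component of the meiotic synaptonemal complex, had 84.5, 80.3, 84.6, 70.6 and 82.7% against 62.1, 61.9, 58.0, 64.0 and 62.1% (difference 18.9 ± 2.79 points, SE; adjusted p = 0.123). KO embryos of 3 ppm had 77.9% ± 12.2 there, and WT embryos 55.3% ± 8.03 (n = 3). A promoter tile of Cpt1b, the muscle form of the enzyme that carries fatty acids into mitochondria, had 47.3% ± 3.26 and 36.61% ± 3.32 (adjusted p = 0.282). It lay at 19.2% ± 3.39 in WT embryos of 3 ppm. Adding the library of disputed genotype, which had 11.3% there, gave a difference of 4.68 points instead of 10.7. The remaining higher tiles were intergenic, 509274 bp from the start of Gm42761 and 70691 bp from that of AC161579.1, with differences of 10.9 points each.

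Of the lower tiles, an exonic tile of Zfp219, which codes for a zinc finger transcription factor, had 36.8, 26.1, 37.2, 31.8 and 31.5% at 30 ppm and 44.4, 46.9, 44.1, 43.1 and 39.1% at 0.1 ppm (difference -10.9 ± 2.40 points, SE; adjusted p = 0.0562, quasi-binomial test). In WT embryos of 3 ppm it had 7.86% ± 2.20. An intergenic tile 134637 bp from the start of Klhl25 had 35.16% ± 6.40 and 49.3% ± 2.50, against 8.73% ± 2.27 in WT. An exonic tile of Entpd2, a cell surface enzyme that splits ATP, had 67.5, 63.8, 58.8, 59.0 and 66.7% against 84.0, 81.7, 79.3, 88.6 and 75.6% (difference -18.7 ± 2.86 points, SE; adjusted p = 0.0780). A promoter tile of Spaca1, a sperm acrosome protein, had 65.5% ± 5.77 and 78.2% ± 3.03, where WT embryos of 3 ppm had 15.5% ± 4.68 and HET embryos 18.1% ± 9.97 at 30 ppm and 40.7 and 40.9% at 0.1 ppm (49.7% in the embryo left out). An intronic tile of Sdk2, a synaptic adhesion molecule, differed by -13.6 points and an intergenic tile 137637 bp from the start of Gm36849 by -17.7 points.

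Below the level of calls, lower tiles outnumbered higher ones. Of the 65991 tiles, 38415 (58.2%) had a lower mean at 30 ppm, and the median difference was -0.583 points. Those that differed by 10 points or more with an unadjusted p below 0.05 numbered 170 higher (0.258% of those tested) and 503 lower (0.762%). Tiles of any size of difference in which the diets did not overlap numbered 160 higher (0.242%) and 486 lower (0.736%). In both directions together these were 646 tiles (0.979%). Random order alone separates 5 from 5 independent embryos, in either direction, with a probability of 0.00794, so that most such tiles need no difference between diets. Of the 673 tiles of 10 points at an unadjusted p below 0.05, the lower ones were more numerous on every autosome. The median difference of all tested tiles ranged between chromosomes from -0.677 to -0.490 points. With the library of disputed genotype included the counts were 48 higher and 967 lower.

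Tiles of 10 points were mostly partly methylated in WT, in both directions. Of the 459 lower tiles with a WT level, 27.7% lay at 10 to 30% and 46.2% at 30 to 70%, of the 160 higher tiles 11.9% and 53.1%, and of all tested tiles 5.26% and 15.2%. Of the lower tiles 41.35% overlapped a region hypermethylated in KO over WT on 3 ppm, against 28.8% of the 170 higher tiles and 18.9% of all tiles tested. Promoter tiles made up 7.36% of the lower, 8.82% of the higher and 6.68% of all tested tiles. Tiles near the lowest or highest level have less room for a difference of 10 points, so that the choice itself favours partly methylated tiles. The shares in this paragraph were not matched for level.

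KO embryos of 3 ppm were read at the same tiles as a description. Of the 452 lower tiles with enough reads, 376 had a 3 ppm mean between those of the 30 and 0.1 ppm groups, against 21768 of 62789 among all tested tiles, and 46.0% were nearer to 0.1 than to 30 ppm, against 49.9% of all tiles. Of the 154 higher tiles, 124 lay between, and 31.2% were nearer to 0.1 ppm. Since these tiles were chosen for a wide gap between 30 and 0.1 ppm, the mean of a further group falls between more often by that choice alone.

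The 7 HET embryos of the same diets, all from litters of the KO embryos, give the diet contrast in another genotype. HET means were lower at 30 ppm in 73.4% of the 492 lower tiles with HET reads, with a median difference of -4.60 points, and in 62.3% of all tiles, with a median of -0.970 points. In the 170 higher tiles HET means were higher at 30 ppm in 52.4%, against 37.7% of all tiles. These shares rest on 5 HET embryos against 2 and on shared litters, whose part was not tested. The diet by genotype interaction, KO against HET, was called in 0 of 65305 tiles (0%) in the quasi-binomial test, with 1410 tiles of 10 points at an unadjusted p under 0.05, and the smallest adjusted p was 0.177. With the HET embryo left out added back, 0 tiles were called and 1201 had 10 points at an unadjusted p under 0.05 (smallest adjusted p = 0.548).

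Genes of 12 lists were read next, from folate metabolism to brain patterning. A tile was given to a gene from 1 kb before its start to its end. No called tile belonged to a gene of these lists, which do not hold Dact1. As only 0.00303% of all tested tiles were called, lists of this size would rarely hold one, and its absence says little about their genes. The lists are described by counts beside those of all tested tiles, of which 41.79% were higher at 30 ppm. Of all tested tiles, 0.258% were higher and 0.762% lower by 10 points at an unadjusted p under 0.05.

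Folate and methyl genes had no called tile, as was the case for every other list. The one-carbon and folate enzymes had tested tiles at 29 of 37 genes, and 35 of 77 tiles were higher, with a median difference of -0.440 points. Their smallest p was at an intronic tile of Aldh1l1, a folate dehydrogenase, with 85.7% ± 6.37 at 30 ppm and 79.6% ± 4.62 at 0.1 ppm (adjusted p = 0.640, quasi-binomial test). 2 tiles of Mthfd1l, a mitochondrial folate enzyme, passed 10 points and an unadjusted p under 0.05, 1 in each direction, with 64.3 and 77.9% at the one with the smaller p. The folate transport genes had 24 tiles, 11 higher, with the smallest p at a tile downstream of the start of the reduced folate carrier Slc19a1 that is an exon of Col18a1 (92.8% ± 6.00 and 98.1% ± 1.96; adjusted p = 0.708). Of the DNA methylation and demethylation enzymes, 25 of 65 tiles were higher. A tile at the promoter of Tet3, another TET enzyme of the brain, had 52.5, 54.2, 60.6, 56.5 and 57.1% at 30 ppm and 70.1, 69.8, 62.0, 63.6 and 66.7% at 0.1 ppm. The groups did not overlap (difference -10.2 ± 2.13 points, SE; adjusted p = 0.616), and WT embryos of 3 ppm had 30.7% ± 3.85.

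At genes of neural tube closure the share of lower tiles was near that of all tested tiles (58.2%). Of 153 tiles at regulators of cranial closure, 93 (60.8%) were lower at 30 ppm, with a median of -1.07 points. An intronic tile of Shroom3, which shapes the apical constriction of neural plate cells, had 10.4% ± 5.96 and 18.9% ± 3.83 (adjusted p = 0.565, quasi-binomial test). In this list 2 tiles (1.31%), both lower, passed 10 points and an unadjusted p under 0.05, at Sufu, an inhibitor of hedgehog signalling, and at Vangl2, a planar cell polarity protein. Of 177 tiles at WNT ligands, receptors and inhibitors, 118 (66.7%) were lower, with a median of -0.942 points. An exonic tile of Rspo1, a secreted enhancer of WNT signalling, had 48.6% ± 2.84 and 55.8% ± 4.51 without overlap (adjusted p = 0.553). The 4 lower tiles (2.26% of the list, beside 0.762% of all tested tiles) that passed 10 points and an unadjusted p under 0.05 belonged to Wnt3a, Wnt7b, Wnt9a and Kremen1.

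**Figure D4:**
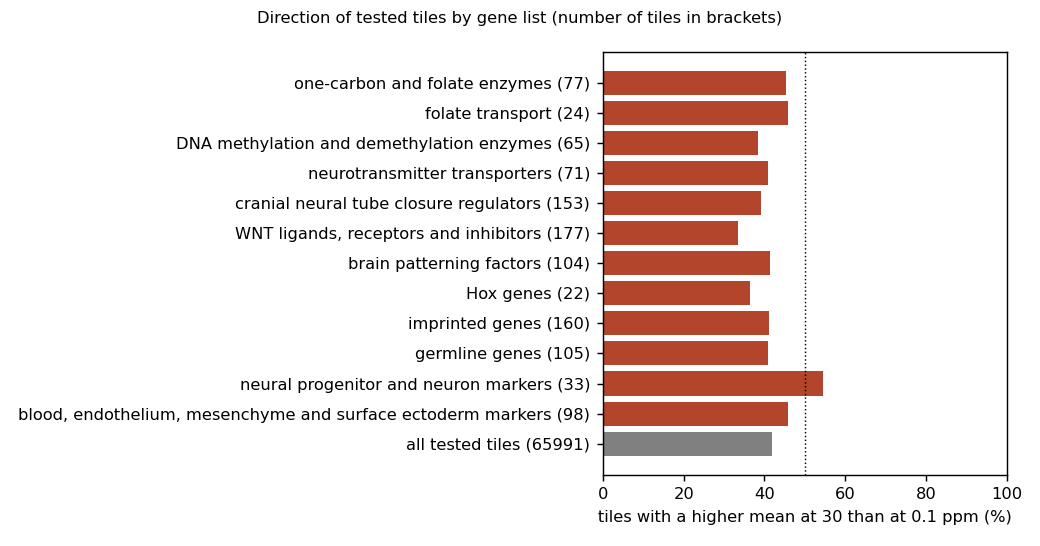
Share in percent of tested tiles of each gene list with a higher mean in KO embryos of 30 than of 0.1 ppm, with the number of tiles in brackets and all 65991 tested tiles in grey. The shares run from 33.3% for the WNT genes to 54.5% for the neural progenitor and neuron markers, beside 41.79% of all tiles.

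Brain patterning factors had 61 lower tiles of 104. An intronic tile of the homeobox gene Meis2 was near 0 at 30 ppm (1.0, 0.0, 0.6, 0.6 and 0.0%) and had 8.0, 15.2, 1.5, 0.9 and 0.8% at 0.1 ppm. Replicates 1 and 2 of 0.1 ppm stood above the other KO embryos of both diets (adjusted p = 0.523, quasi-binomial test). HET embryos had 1.3% ± 1.7 at 30 ppm. At 0.1 ppm the HET littermate of KO replicate 1 had 9.6% and that of KO replicate 2, the HET embryo left out, 7.6%. The remaining HET embryo of 0.1 ppm had 3.7%, and the part of the litter was not tested. The 1 tile of the list that passed 10 points and an unadjusted p under 0.05, at Pax7, a paired box factor of the dorsal neural tube, was lower (8.29 and 19.7%). Of 22 tiles at Hox genes, 14 were lower, and a tile in Hoxc5 and Hoxc6 had 0.256% ± 0.356 and 2.88% ± 2.88. The neurotransmitter transporters had 42 lower tiles of 71, led by an exon of the glutamate transporter Slc1a6 with 14.3% ± 4.08 and 22.3% ± 5.69 (adjusted p = 0.442), where WT embryos of 3 ppm had 1.502% ± 0.312.

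Imprinted genes had 94 lower tiles of 160. The smallest p was at the promoter of Cdkn1c, a maternally expressed inhibitor of the cell cycle, with 62 CpGs and 21.2% ± 3.05 against 26.5% ± 2.25 (difference -5.29 ± 1.70 points, SE; adjusted p = 0.123, quasi-binomial test). 3 tiles of this list passed 10 points and an unadjusted p under 0.05: 1 at Mest (53.4 and 38.03%) and 1 shared by Nnat and Blcap (63.0 and 51.8%) were higher at 30 ppm, and 1 shared by Gnas and Nespas (47.1 and 57.9%) was lower. Of 105 tiles at germline genes, 62 were lower. The Sycp3 tile above had the smallest p of this list and was higher at 30 ppm. It and a tile of Fkbp6, a gene of meiosis in the male germline, which was lower (74.9 and 85.6%), were the 2 tiles of the list that passed 10 points and an unadjusted p under 0.05.

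Markers of cell types were read for their methylation, not their expression. Of 33 tiles at neural progenitor and neuron markers, 18 were higher, with a median of 0.130 points. Of these tiles 2 (6.06%, beside 0.762% of all tested tiles) were lower by 10 points at an unadjusted p under 0.05, at Nes and at Msi1, an RNA-binding protein of neural progenitors, and 0 were higher by as much. The Msi1 tile had 49.0 and 61.1% at 30 and 0.1 ppm (adjusted p = 0.738, quasi-binomial test). The smallest p was at an exonic tile of Nes, the intermediate filament of neural progenitors, with 18.2, 17.2, 23.0, 26.6 and 11.1% at 30 ppm and 35.19, 35.19, 25.0, 41.9 and 30.8% at 0.1 ppm. The diets overlapped at replicate 5 of 30 ppm and replicate 3 of 0.1 ppm (difference -14.4 ± 3.84 points, SE; adjusted p = 0.489). Of 98 tiles at markers of blood, endothelium, mesenchyme and surface ectoderm, 53 were lower, with a median of -0.285 points. An intronic tile of Pecam1, an adhesion molecule of endothelium, had 84.8% ± 4.08 and 91.4% ± 4.75. The part of cell type shares in the differences was not tested.

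Around start sites the diets had the same profile with a small offset. In bins of 250 bp within 5 kb of the nearest start of a protein-coding gene, the level was lowest just downstream of the start, at 2.34% at 30 ppm and 2.40% at 0.1 ppm. The mean was lower at 30 ppm in all 40 bins, with differences from -0.612 to -0.0590 points, and in 9 of them the diets did not overlap. Bins share embryos and are not independent.

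**Figure D5:**
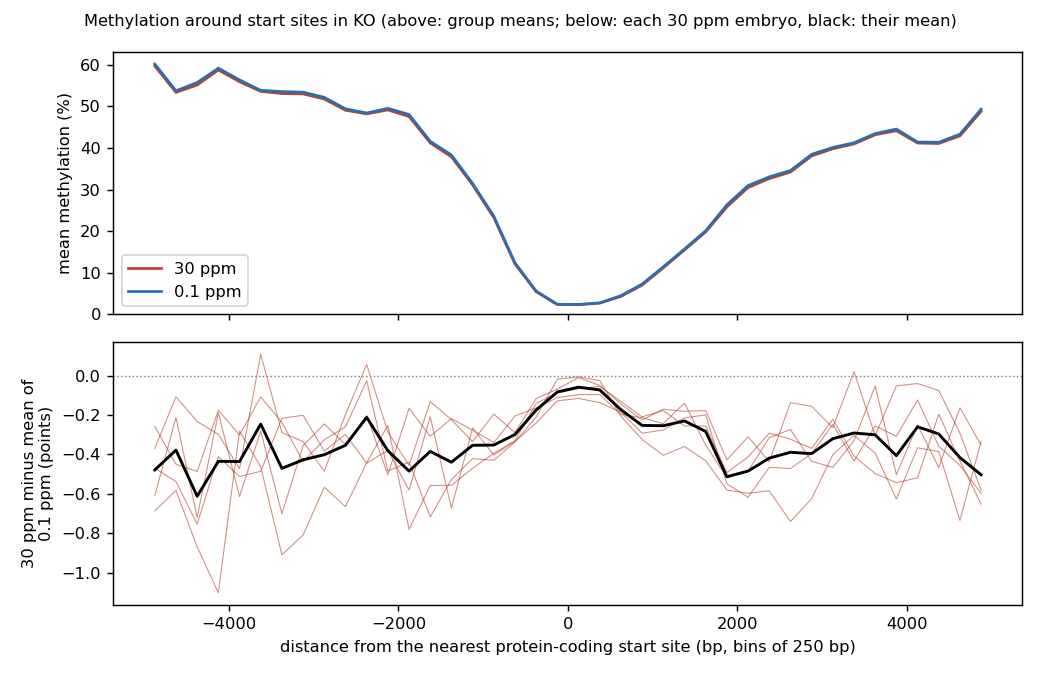
Mean methylation in percent by distance in bp from the nearest protein-coding start site in KO embryos of both diets (above), and the difference in percentage points of each 30 ppm embryo from the mean of the 0.1 ppm embryos (below; black, their mean). The mean difference is closest to 0 at the start site, at -0.0590 points, and below 0 in all 40 bins.

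Embryos of 1 diet were hardly more alike than embryos of different diets. Over the tested tiles, the mean absolute difference between 2 embryos had a median of 5.37 points in 18 pairs of the same diet from other litters (range 4.60 to 5.80) and of 5.42 points in 25 pairs of different diets (range 4.46 to 6.15). The 2 pairs of littermates had 4.89 and 5.12 points. The median SD of a tile was 3.84 points at 30 ppm and 3.81 points at 0.1 ppm, and 50.2% of the tiles had the higher SD at 30 ppm.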

How the data were processed

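The authors digested DNA of single brains with MspI and TaqI, treated it by oxidative bisulfite, trimmed reads with Trim Galore 0.6.10, aligned them to mm10 with Bismark 0.24.1 and removed duplicates with UMI-tools. The deposited tables give, per CpG, the fraction of methylated reads, as the authors made it, and the counts of covering reads, which the authors left unnormalised. Fraction times coverage was within 1e-06 of a whole number on every line, which gave methylated reads. Positions in the files count from 0 and are printed from 1. The authors' DMR lists hold positions only, from methylKit 1.26.0. Their lists of HET against WT were not used here.

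Groups, sex, phenotype and litter came from the sample titles. Replicate numbers follow accession order and pair nothing. The members, gene lists and tests were chosen with earlier results of these data known. CpGs on autosomes with a coverage of 5 or more in each of the 10 libraries were used. Mean levels weight each CpG equally and were tested by exact permutation (two-sided, 252 splits), of which the smallest p is 0.00794, with 95% intervals by inversion. Embryos of a litter share a dam, so p-values measure the spread between embryos. Tiles of 1 kb were fitted by a quasi-binomial logistic model (F test, dispersion moderated with limma 3.58.1 in R 4.3.3 and held at 1 or above), with Benjamini-Hochberg adjustment. In simulated reads for the 65991 tiles, the quasi-binomial test recovered 157 of 200 tiles raised by 20 points, with 7 false calls. The raised tiles were all of intermediate level, embryos were independent and all tiles had the same overdispersion. The simulation does not give the recovery of differences of 10 points. Named tiles are all called ones, then per direction the 6 with the smallest p among tiles of 10 points without overlap (called or not, at most 1 per nearest gene), then the smallest p of each gene list. Genes are from GENCODE vM21. A median tile held 76 reads per embryo. Intervals cover the spread between embryos. Conversion and oxidation rates were not used here, so that small offsets between diets cannot be set against them. Alternatives are given in the closing section.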

Additional observations from a re-analysis of the deposited data

Results flagged for a closer look

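A sample is listed here if it lay far from the other 4 embryos of its diet by Dixon's test at the 95% level. Of 86 groups of 5 values checked, 7 had such a sample, and chance gives about 1 in 20. Replicate 5 of 30 ppm stood below its group in 3 region lists that overlap: at regions hypermethylated in KO over WT on 3 ppm it had 51.2% (others 51.9 to 52.0%), at those of 30 ppm 47.9% (others 49.1 to 49.5%) and at those of 0.1 ppm 45.5% (others 46.7 to 47.1%). Without it the differences between diets were -1.09, -0.636 and -1.30 points.

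Replicate 1 of 0.1 ppm had 75.4% at the Dact1 tile (others 82.2 to 83.5%). Replicate 2 of 30 ppm had 46.1% at the intergenic tile 134637 bp from the start of Klhl25 (others 30.1 to 34.48%) and 74.7% at the intronic tile of Aldh1l1 (others 87.5 to 91.3%). Replicate 4 of 30 ppm had 77.6% at the tile of Pecam1 (others 85.6 to 87.5%).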

How the results depend on the processing

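No paired analysis was possible because replicate numbers follow accession order and litters are nested in diets. Changes are of KO 30 minus 0.1 ppm, in percentage points. The mean over CpGs became 0.424 with reads pooled and 0.273 over each embryo's own CpGs, and -0.245 outside the KO over WT regions (exact permutation p = 0.0794, chosen after seeing the data). With the library of disputed genotype it was -0.752, and without 1 embryo it ranged from -0.409 to -0.284. Of the 3 called lists, chosen on other embryos, none lost its call in the alternatives run, except that with the library of disputed genotype the WT 30 over 3 ppm list gave -4.19 (exact permutation, adjusted p = 0.0644). That library also moved the KO over WT list of 3 ppm to -3.17 and the WT 0.1 under 3 ppm list to -3.77, which kept their calls, and turned the WT and HET lists of 0.1 over 3 ppm, which were not called, to -0.527 and -1.39. The KO over WT lists of 30 and 0.1 ppm, a description since they were chosen on these KO embryos, moved to -3.29 and -3.89. Outside the KO over WT regions the WT 30 over 3 ppm list gave -0.771. Over the CpGs also covered in the other embryos, the library of disputed genotype had 40.33% at the KO over WT regions of 3 ppm. There the 5 KO embryos of 30 ppm had a mean of 51.81% and the HET embryos of 30 ppm 41.12%. In tiles at 10 to 30% in WT it had 20.91%, beside means of 32.50% in these KO and 21.09% in these HET embryos. The cause of the shifts in this paragraph was not tested.

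Classes that passed lost their call in these settings, in the order exon, intron, intergenic, WT under 10%, WT 10 to 30%, WT 30 to 70% and 20 to 50 CpGs per kb. With the disputed library they differed by -1.16, -1.21, -1.21, -0.272, -3.56, -2.83 and -1.04, and with littermates merged, where 4 against 4 litters limit p, by -0.550, -0.707, -0.732, -0.156, -1.68, -1.32 and -0.523. With reads pooled, exons gave -0.0884, introns 0.0691, intergenic CpGs -0.00836, WT under 10% -0.105 and 20 to 50 CpGs per kb 0.0443. At a coverage of 10, introns gave -0.524, intergenic CpGs -0.564 and WT under 10% -0.103. Other classes gained a call. Without replicate 3 of 0.1 ppm, promoters gave -0.149 and over 50 CpGs per kb -0.136 (exact permutation, adjusted p = 0.0146 for both). Tiles under 20 CpGs per kb passed without replicate 5 of 30 ppm or replicate 4 of 0.1 ppm (exact permutation, adjusted p = 0.0499 and 0.0249). Without 1 embryo the ranges were -0.149 to -0.0898 for promoters, -0.556 to -0.418 for exons, -0.665 to -0.435 for introns, -0.706 to -0.443 for intergenic CpGs, -0.165 to -0.0994 for WT under 10%, -1.83 to -1.46 for WT 10 to 30%, -1.27 to -1.004 for WT 30 to 70%, -0.545 to -0.260 for WT over 70%, -0.742 to -0.449 for under 20, -0.506 to -0.367 for 20 to 50 and -0.136 to -0.0845 for over 50 CpGs per kb.

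Called tiles numbered 0 with the disputed library, without the SD filter and by limma, 19 with littermates merged, 1 at a minimum of 20 points, 5 with tiles shifted by 500 bp, 50 (4 higher and 46 lower) as single CpGs, 2 (both lower) at a coverage of 10, 7 with sex and 10 with phenotype as covariate, 367 in a binomial model with dispersion 1 (which treats reads as replicates), 5 with a coverage maximum, and 3 to 20 without 1 embryo. Tiles of 10 points with an unadjusted p under 0.05 numbered 673, against 275 at a coverage of 10, 1015 with the disputed library, 19 at 20 points, 16705 as single CpGs and 714 to 970 without 1 embryo. No named tile turned its direction in the settings that kept it. A median of 59 to 108 reads per tile and embryo limits the precision of single tiles.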
